A study of Mus musculus with 12 samples.

Results

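The genes described here are 9 regulators of the G1 phase of the cell cycle: the D cyclins Ccnd1, Ccnd2 and Ccnd3, the kinases Cdk4 and Cdk6, the inhibitors Cdkn1b, Cdkn2c and Cdkn2d, and the retinoblastoma gene Rb1. They were taken as a named list and not by a limit on their values. All 9 were among the 15012 genes tested, of 20696 genes with at least 1 read. RNA was sequenced from mouse bone marrow cells that had been sorted as Lin-Sca-1+Kit+ and negative for Flk2 (the product of Flt3), a compartment that holds blood stem cells and early multipotent progenitors. There were 12 polyA-selected libraries in 4 genotypes, with 3 libraries each and a mouse number of its own for every library. The genotypes were the double mutant Mdmx-Tg/Pu.1-URE-/-, Pu.1-URE-/-, Mdmx-Tg and Wild-type. In Pu.1-URE-/- mice an upstream regulatory element (URE) of Spi1 is missing, and Spi1 encodes PU.1, a transcription factor of myeloid and lymphoid cells. Mdmx-Tg mice have an Mdmx transgene (the mouse gene is Mdm4, and its protein inhibits p53), and the double mutant has both changes. The promoter of the transgene, the ages and the strain background are not given in the sources used here. Levels are in CPM, reads per 1000000 reads of a library, scaled by trimmed-mean (TMM) factors. Overlap of a gene's levels between genotypes is read in CPM unless TPM is named. Changes are log2 fold changes with standard errors (SE) from edgeR's quasi-likelihood test over all 12 libraries. A gene is called changed when its Benjamini-Hochberg adjusted p over the 15012 genes is under 0.05.

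In G1, D cyclins bind CDK4 or CDK6, and the active kinases phosphorylate the retinoblastoma protein, which then releases E2F factors that switch on genes for DNA replication. INK4 proteins, among them p18 (Cdkn2c) and p19 (Cdkn2d), bind CDK4 and CDK6 and block them. The Kip protein p27 (Cdkn1b) inhibits CDK2 complexes and also binds complexes of D cyclins. In mouse bone marrow most stem cells rest outside the cycle while progenitors divide, and D cyclins, CDK6, p27 and p18 are known regulators of that balance.

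Library totals were 47231546 to 55030263 estimated reads, with 12824 to 14117 genes at 10 reads or more. Mdm4 ranged over 163 to 353 CPM in the double mutant and 163 to 535 CPM in Mdmx-Tg, against 56.2 to 93.9 CPM in Pu.1-URE-/- and 35.8 to 77.9 CPM in Wild-type. Spi1 was low everywhere, with means of 1.78, 13.8, 12.9 and 17.1 CPM in the double mutant, Pu.1-URE-/-, Mdmx-Tg and Wild-type, and it did not pass the test for element loss (edgeR adjusted p = 0.27). The gate genes Kit (genotype means 204 to 304 CPM) and Ly6a (47.3 to 64.6 CPM) were present, but so was Flt3, although the gate was negative for its product. Flt3 ranged over 35.6 to 53.7 CPM in the double mutant and 10.8 to 51.9 CPM in Pu.1-URE-/-, against 5.82 to 22.2 CPM in Mdmx-Tg and 7.06 to 13.6 CPM in Wild-type. With element loss 1 of these 3 gate genes was called higher and 1 lower, where 11.9% of all genes were called. Genes of other cell types were also present. The summed CPM of 10 neutrophil markers was 23808 to 28292 in the double mutant and 25019 to 92239.5 in Pu.1-URE-/-, against 3.76 to 31.1 in Mdmx-Tg and 8.11 to 24.7 in Wild-type. Of these markers, Mmp8 had no read in the double mutant and Pu.1-URE-/-, while Ltf, Ly6g and Mmp8 had none in Mdmx-Tg and Ly6g and Retnlg none in Wild-type. Erythroid markers (7 genes, none at 0 in a genotype) summed to 22.3 to 842 CPM in the double mutant, 370 to 1037 in Pu.1-URE-/- and 552 to 1902 in Mdmx-Tg, against 1826 to 2766 CPM in Wild-type, with Mdmx-Tg 3 above the other transgenic libraries. Of 5 megakaryocyte markers Pf4 and Ppbp were called lower with element loss, and all 5 values were below 0 (median -1.6 log2). Their summed CPM was 24.8 to 59.3 in the double mutant and 8.99 to 57.0 in Pu.1-URE-/-, against 62.1 to 104 in Mdmx-Tg and 56.1 to 159 in Wild-type, and Ppbp had no read in the double mutant and Pu.1-URE-/-. Immunoglobulin genes took from 0.131% of the reads (Mdmx-Tg/Pu.1-URE-/- 1) to 31.2% (Wild-type 1). Y-linked genes summed to 200 to 222 CPM in Wild-type 2 and Mdmx-Tg/Pu.1-URE-/- 1 and 3, and to at most 5.7 CPM in the other libraries.

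RefSeq promoter windows (GRCm38.p6, 250 bases before to 50 after a start) were at hand for 6 of the 9 genes, in 8 windows, and not for Ccnd1, Ccnd2 and Rb1. The 4 windows shown belong to Cdkn2d and Ccnd3, the genes that rose with loss of the element, and to Cdkn1b, the gene that separated the transgenic libraries from the others in CPM. Ccnd3 has a window for each of its 2 starts, since the reads of its transcripts divided differently between them in some libraries. Each is written 5′ to 3′ on the gene's strand, and capitals mark GGGCGG (a GC box, the site type of Sp1) and GGAAGT (a core sequence of ETS factors, the family of PU.1) on either strand, the reverse reading CCGCCC and ACTTCC.
Cdkn2d, chr9:21291160-21291459, minus strand: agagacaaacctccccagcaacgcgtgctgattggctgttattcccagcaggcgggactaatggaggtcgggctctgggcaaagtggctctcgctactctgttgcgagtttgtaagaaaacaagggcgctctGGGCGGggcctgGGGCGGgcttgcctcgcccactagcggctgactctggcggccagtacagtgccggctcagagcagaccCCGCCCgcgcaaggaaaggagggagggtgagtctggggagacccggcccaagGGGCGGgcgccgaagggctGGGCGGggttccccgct
Ccnd3 upstream start, chr17:47504801-47505100, plus strand: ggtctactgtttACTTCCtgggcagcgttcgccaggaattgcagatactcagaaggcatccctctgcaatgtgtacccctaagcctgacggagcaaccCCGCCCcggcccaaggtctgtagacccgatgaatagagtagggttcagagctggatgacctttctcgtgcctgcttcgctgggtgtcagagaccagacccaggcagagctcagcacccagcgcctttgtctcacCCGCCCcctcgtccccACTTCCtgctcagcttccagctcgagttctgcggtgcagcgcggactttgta
Ccnd3 main start, chr17:47593217-47593516, plus strand: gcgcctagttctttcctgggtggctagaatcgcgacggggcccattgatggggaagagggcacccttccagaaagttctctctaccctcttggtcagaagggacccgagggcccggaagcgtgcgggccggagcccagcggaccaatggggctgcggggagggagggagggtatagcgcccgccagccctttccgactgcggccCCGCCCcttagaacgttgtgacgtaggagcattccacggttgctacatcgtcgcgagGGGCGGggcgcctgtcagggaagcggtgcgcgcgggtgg
Cdkn1b, chr6:134920151-134920450, plus strand: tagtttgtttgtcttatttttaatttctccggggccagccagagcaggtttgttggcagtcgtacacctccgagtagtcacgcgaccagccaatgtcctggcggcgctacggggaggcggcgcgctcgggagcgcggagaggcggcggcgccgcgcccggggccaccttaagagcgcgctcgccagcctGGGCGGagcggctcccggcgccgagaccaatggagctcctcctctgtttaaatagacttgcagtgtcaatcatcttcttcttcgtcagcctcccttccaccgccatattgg

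GGGCGG stood 5 times in the Cdkn2d window, 2 times in each Ccnd3 window and 1 time in the Cdkn1b window, and in all it was in 6 of the 8 windows, against 35.7% of 32851 RefSeq windows of the same length. GGAAGT was in 1 of the 8 windows, the upstream start of Ccnd3, which holds it 2 times, against 23.8% of all windows. The E-box CACGTG was in 3 of the 8, with 4 matches in the Cdk4 window, against 7.15% of all windows. The E2F-type words TTTCCCGC (1.07% of all windows) and TTTGGCGC (0.514%) were in none of the 8. All were searched on both strands, and matches of these words overlapped at 1 place, in the Cdk4 window. The Cdkn2d, Ccnd3 and Cdkn1b windows had a GC content of 59.3% to 67%, against 53.8% over all windows.

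Levels were compared between the 9 genes on the authors' TPM scale, a share of all transcripts that accounts for their length. Cdk4 had the highest mean in every genotype, with 635 ± 88.4, 542 ± 159, 556 ± 132 and 635 ± 417 TPM (SD, n = 3 each) in the double mutant, Pu.1-URE-/-, Mdmx-Tg and Wild-type. Its libraries lay above those of the next gene in every genotype except Wild-type, where the range of Cdk4 (261 to 1084 TPM) overlapped that of Ccnd2 (129 to 353 TPM). Within each Wild-type library Cdk4 was still the higher, at 261 against 193, 559 against 129 and 1084 against 353 TPM. The order below it depended on the genotype. In Pu.1-URE-/-, Ccnd3 had the next highest mean (207 ± 79.4 TPM), followed by Cdkn2d (175 ± 47.2 TPM), with overlapping ranges. Within each of these libraries Ccnd3 was the higher (282 against 205, 124 against 120.2 and 216 against 199 TPM). In Wild-type, Ccnd2 (225 ± 115 TPM), Cdk6 (108 ± 65.9 TPM) and Ccnd3 (79.9 ± 34.3 TPM) followed Cdk4, and each overlapped its neighbour. Ccnd2 exceeded Cdk6 within each Wild-type library, while Cdk6 was below Ccnd3 in Wild-type 1 (40.8 against 45.6 TPM). In the double mutant Cdk6 followed Cdk4 (192 ± 39.4 TPM), its 3 libraries all above those of Ccnd2, and in Mdmx-Tg Ccnd2 followed it (205 ± 108 TPM) and overlapped Cdk6. In Mdmx-Tg 2 Cdk6 exceeded Ccnd2 (192 against 86.7 TPM). Ccnd1, Cdkn2c and Rb1 had the 3 lowest means in each genotype, with libraries of 1.51 to 18.6 TPM, and in Wild-type the range of Cdkn2c overlapped that of Cdkn1b (14.7 ± 8.0 TPM). Cdkn1b was the higher within each Wild-type library (7.28 against 6.98, 13.5 against 7.43 and 23.2 against 11.1 TPM). Over the 12 libraries the CPM of a gene varied least for Cdk4 (2.06 times between the lowest and the highest library) and most for Ccnd3 (9.5 times) and Ccnd1 (8.09 times).

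**Figure D1:**
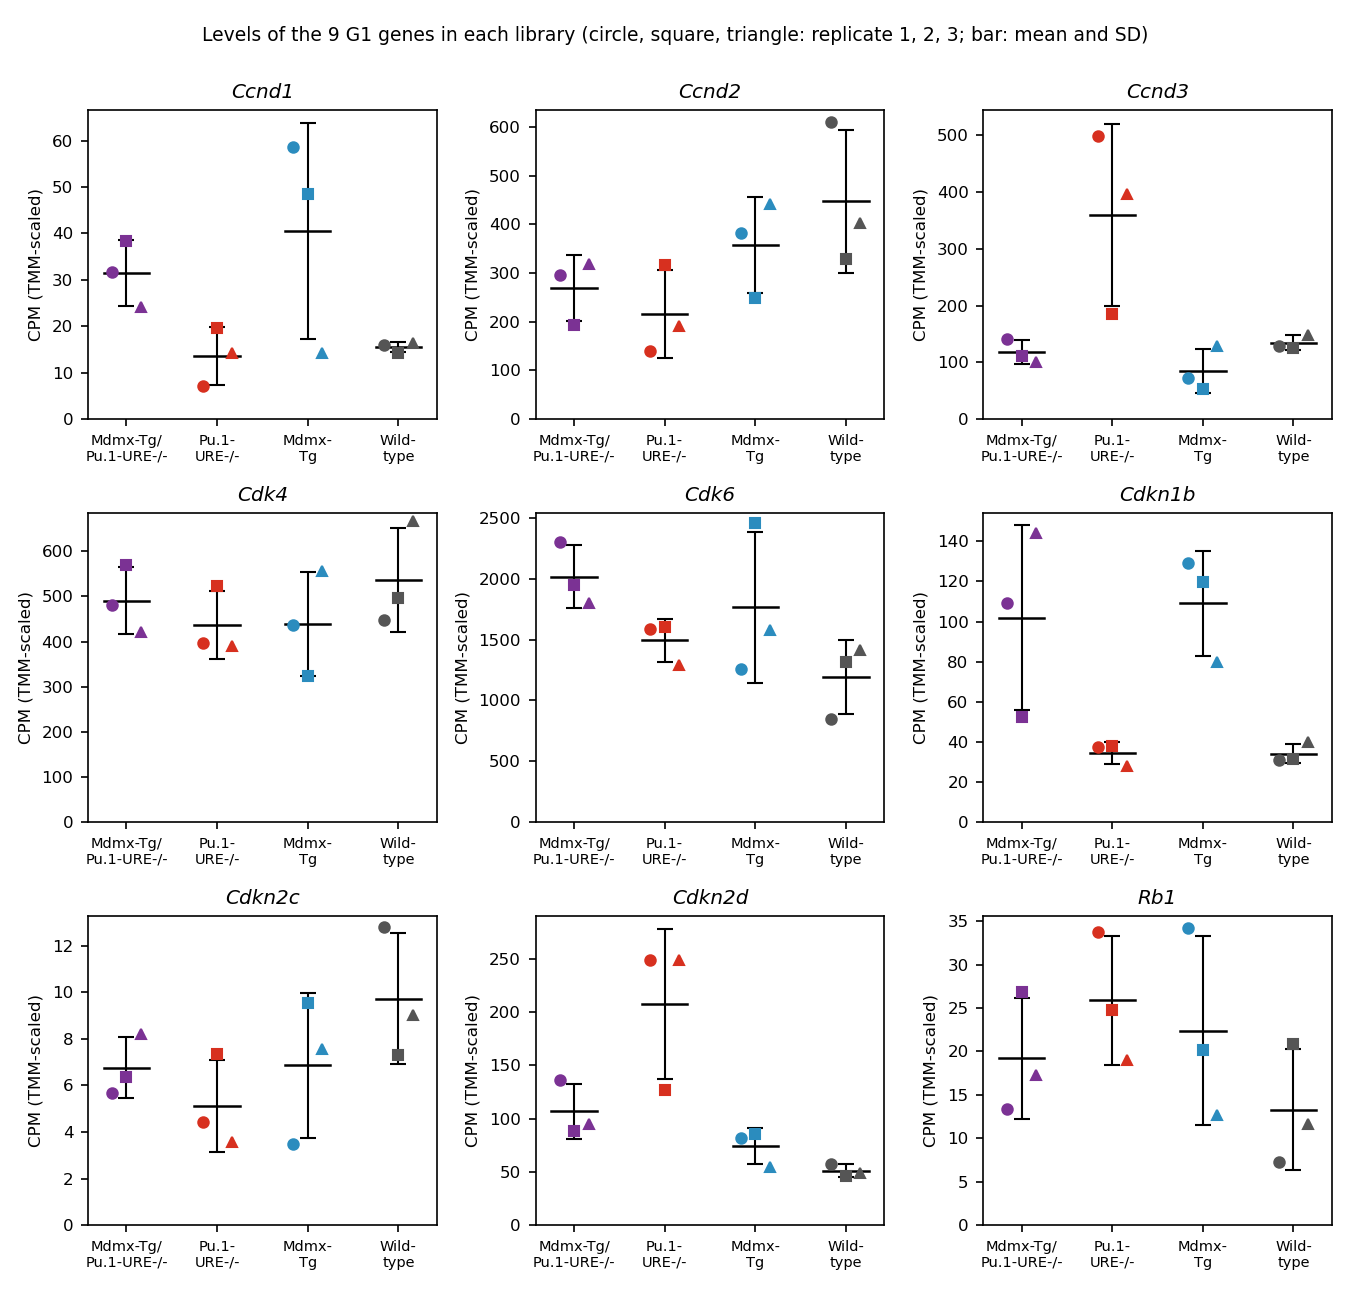
CPM of each of the 9 genes in the 12 libraries, by genotype, with the mean (horizontal bar) and SD (vertical bar) of 3 libraries. Cdkn2d and Ccnd3 have their highest means in Pu.1-URE-/- (208 and 360.2 CPM), Cdkn1b is higher in all 6 transgenic libraries than in the 6 others, and Cdk4 ranges from 324 to 667 CPM.

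Loss of the Spi1 element was tested as the mean change over both transgene states, 6 libraries without the element against 6 with it. Of the 9 genes 2 rose, Cdkn2d and Ccnd3, and none fell, while over all genes tested 11.9% were called, 8.08% higher and 3.81% lower. The 9 changes had a median of -0.05 log2, against 0.00 over all genes. Only Cdkn2d had groups that did not overlap in CPM, which 6.78% of all genes showed in this comparison. In bulk libraries such as these, a different share of cells of a type and a different amount of RNA per cell cannot be told apart.

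Cdkn2d (chromosome 9, 21288410 to 21291407, minus strand, on GRCm38 in the GENCODE M21 annotation, as for the genes below) encodes p19 (INK4d), an inhibitor of CDK4 and CDK6. Without the element it stood at 136, 88.4 and 95.3 CPM in the double mutant and at 249, 127 and 249.5 CPM in Pu.1-URE-/-. With the element in place it stood at 81.8, 85.7 and 54.9 CPM in Mdmx-Tg, with 57.7, 46.1 and 49.3 CPM in Wild-type. In CPM all 6 libraries without the element lay above all 6 with it, by a narrow margin between Mdmx-Tg/Pu.1-URE-/- 2 and Mdmx-Tg 2. On the TPM scale the groups overlapped, with 72.7 TPM in Mdmx-Tg/Pu.1-URE-/- 2 against 77.7 TPM in Mdmx-Tg 1. The gene was 2.42-fold higher without the element (log2 1.28, SE 0.21, edgeR adjusted p = 0.00279), and this call held in all 10 alternative settings and with each of the 12 libraries left out. Against Wild-type, Pu.1-URE-/- had 4.08-fold more Cdkn2d (log2 2.03, SE 0.30, edgeR adjusted p = 0.00346). That was the only one of the 9 genes called in this comparison, in which 4.71% of all genes were called, and it held in all 11 settings and 12 left-out fits, with adjusted p up to 0.0368. Within the transgenic mice the difference was 1.44-fold (log2 0.52, SE 0.29) and did not pass (edgeR adjusted p = 0.392). None of the 9 genes passed there, against 2.32% of all genes. In CPM, but not in TPM, the 3 double-mutant libraries lay above the 3 Mdmx-Tg libraries for Cdkn2d. It was alone among the 9 in this, where 19.2% of all genes had groups that did not overlap in CPM. At an unadjusted edgeR p under 0.05 none of the 9 passed either, against 16.9% of all genes, and neither DESeq2 nor limma-voom called one. The difference between the 2 element effects was -1.51 log2 (SE 0.41), with an unadjusted edgeR p of 0.00355 and an adjusted p of 0.767. It passed in DESeq2 alone of the settings tried (adjusted p = 0.0332). edgeR called no gene for this interaction (0%). Cdkn2d was the only one of the 9 at an unadjusted p under 0.05, where 5.8% of all genes stood, and DESeq2 called 194 of all genes and limma-voom none.

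Cdkn2c, the p18 gene (chromosome 4, 109660876 to 109667189, minus strand), was lower in value without the element but did not pass. It had 5.67, 6.38 and 8.23 CPM in the double mutant, 4.44, 7.36 and 3.59 in Pu.1-URE-/-, 3.47, 9.56 and 7.57 in Mdmx-Tg and 12.8, 7.33 and 9.04 in Wild-type. The groups overlapped in every comparison, and the change with element loss was -0.47 log2 (SE 0.37, edgeR adjusted p = 0.469). The gene rested on 181 to 591 reads per library, the fewest of the 9. As a share of the summed TPM of the pair, Cdkn2d made up 92.3% ± 2.43 in the double mutant, 96.9% ± 2.4 in Pu.1-URE-/-, 89.7% ± 5.03 in Mdmx-Tg and 81.5% ± 2.85 in Wild-type (SD, n = 3 each). The highest Wild-type share (83.2%) was below the lowest share of any other genotype (85.9%, in Mdmx-Tg).

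Ccnd3, the cyclin D3 gene (chromosome 17, 47505051 to 47599691, plus strand), had 142, 111 and 101 CPM in the double mutant and 499, 185 and 397 CPM in Pu.1-URE-/-. It had 73.2, 52.5 and 129 CPM in Mdmx-Tg, with 129, 126 and 149 CPM in Wild-type. The 3 Pu.1-URE-/- libraries lay above all others, while the double mutant overlapped both genotypes with the element. Over both transgene states Ccnd3 was 1.93-fold higher without the element (log2 0.95, SE 0.27, edgeR adjusted p = 0.0419). This call was near its limit: it was lost with relative log expression factors (adjusted p = 0.0508), with Y-linked expression as a covariate (0.0804), and without Mdmx-Tg/Pu.1-URE-/- 3, Mdmx-Tg 2 and Wild-type 1 together (0.154). It was also lost on leaving out any 1 library other than Mdmx-Tg 3 or Pu.1-URE-/- 2, with adjusted p of 0.0605 to 0.118 in those 10 fits. Between Pu.1-URE-/- and Wild-type alone the change was 2.68-fold (log2 1.42, SE 0.38, edgeR adjusted p = 0.0589). It passed there with a block for the mouse number series (log2 1.99, adjusted p = 0.0484), with a transcript length offset (1.28, 0.0446) and with DESeq2 (1.41, 0.00316). The series were ranges of mouse numbers set for the fit, and the labels do not name them. Of these 2 genotypes, only Pu.1-URE-/- 1 and Wild-type 1 shared a range, so that fit compares them with little overlap. It also passed on leaving out Pu.1-URE-/- 2 (0.0161), Mdmx-Tg 2 (0.0468) or Mdmx-Tg 3 (0.0399). Between the double mutant and Mdmx-Tg the change was 1.39-fold (log2 0.47, SE 0.37, edgeR adjusted p = 0.593).

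The 2 genes that rose were highest in the libraries with the most RNA of granulocyte genes. Among Pu.1-URE-/- libraries, replicates 1 and 3 had a summed neutrophil marker level of 92239.5 and 62107 CPM, with Ccnd3 at 499 and 397 CPM and Cdkn2d at 249 and 249.5 CPM. Replicate 2 had 25019 CPM of these markers, with Ccnd3 at 185 CPM and Cdkn2d at 127 CPM. The double mutant, with 23808 to 28292 CPM of neutrophil markers, had 101 to 142 CPM of Ccnd3 and 88.4 to 136 CPM of Cdkn2d. Granulocyte-monocyte progenitor markers (8 genes, none at 0 in a genotype) summed to 10348 to 29849.6 CPM in the double mutant and 27999.5 to 53769 CPM in Pu.1-URE-/-, against 878 to 1659 CPM in Mdmx-Tg and 1269.7 to 2563 CPM in Wild-type. Of those 8 markers all were called higher without the element, as were 8 of the 9 neutrophil markers tested. The part of these cells in the changes of Cdkn2d and Ccnd3 was not tested.

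**Figure D2:**
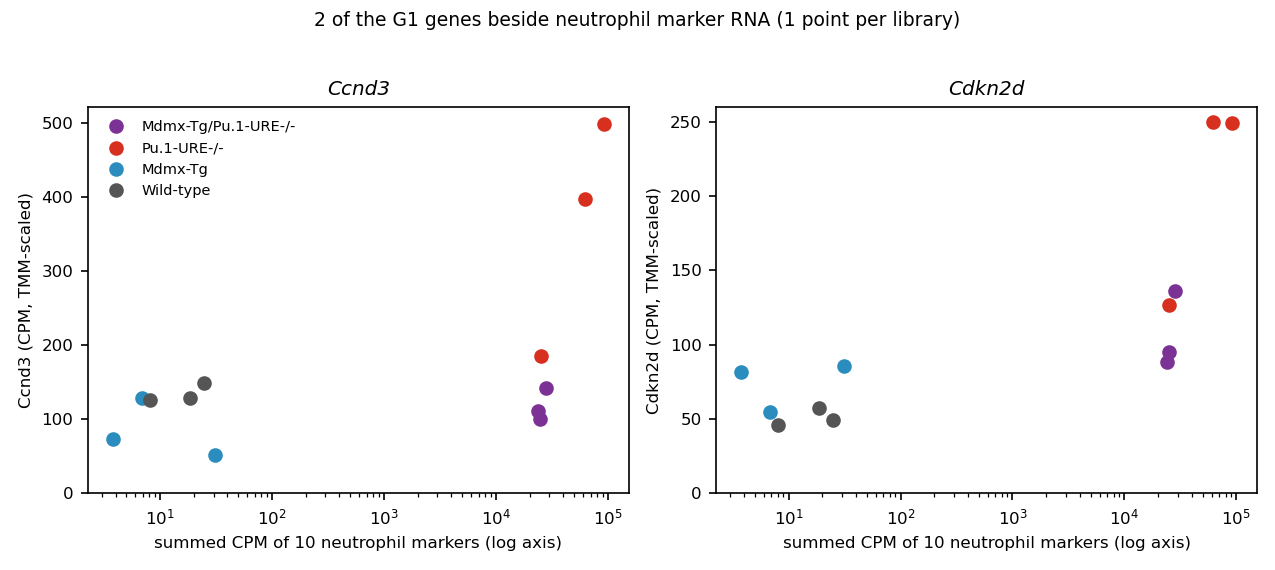
CPM of Ccnd3 (left) and Cdkn2d (right) against the summed CPM of 10 neutrophil markers on a log axis, with 1 point per library. The 6 libraries without the element sit between 23808 and 92239.5 CPM of marker RNA and the 6 others at or below 31.1 CPM, and the 2 libraries with the most marker RNA, Pu.1-URE-/- 1 and 3, have the most Ccnd3 and Cdkn2d.

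Ccnd2, the cyclin D2 gene (chromosome 6, 127125162 to 127152193, minus strand), had 296, 193 and 319 CPM in the double mutant and 139.7, 316 and 192 CPM in Pu.1-URE-/-. It had 383.2, 249 and 441 CPM in Mdmx-Tg, with 609.6, 328 and 403 CPM in Wild-type. The 3 libraries of Pu.1-URE-/- and the 3 of the double mutant were each below all 3 Wild-type libraries, but they overlapped Mdmx-Tg. On the TPM scale they also overlapped Wild-type (129 to 353 TPM), with up to 161 TPM in Pu.1-URE-/- and 168 TPM in the double mutant. With element loss the change was -0.73 log2 (SE 0.25, edgeR adjusted p = 0.0813), and it passed with DESeq2 (0.00967), with a transcript length offset (0.0493) and without Pu.1-URE-/- 2 (0.0254). Pu.1-URE-/- against Wild-type gave -1.05 log2 (SE 0.35, edgeR adjusted p = 0.124), and it passed with DESeq2 (-1.08 log2, 0.0179) and without Pu.1-URE-/- 2 (-1.46 log2, 0.0444). Ccnd2, Ccnd3 and Cdkn2d were the 3 genes of the list whose Pu.1-URE-/- and Wild-type libraries did not overlap, where 29.7% of all genes did not.

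The make-up of the D cyclins differed in value between genotypes. Ccnd3 made up 39.3% ± 4.56 of their summed TPM in the double mutant, 62.5% ± 18.2 in Pu.1-URE-/-, 23.7% ± 6.63 in Mdmx-Tg and 26.9% ± 9.62 in Wild-type (SD, n = 3 each). Ccnd2 made up 56.2% ± 6.37 in the double mutant, 36.1% ± 17.2 in Pu.1-URE-/-, 71.5% ± 9.07 in Mdmx-Tg and 60.6% to 80.1% in Wild-type. In Pu.1-URE-/- 2, the library with the least neutrophil marker RNA of its genotype, Ccnd2 (55.2%) exceeded Ccnd3 (42.4%), and in replicates 1 and 3 Ccnd3 led with 77.9% and 67.2%. The summed TPM of the 3 cyclins overlapped between all genotypes, at 158 to 281 in the double mutant, 292 to 362 in Pu.1-URE-/-, 142 to 382 in Mdmx-Tg and 213 to 473 in Wild-type, except that the double mutant lay below Pu.1-URE-/-. These shares are descriptions, with no test.

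**Figure D3:**
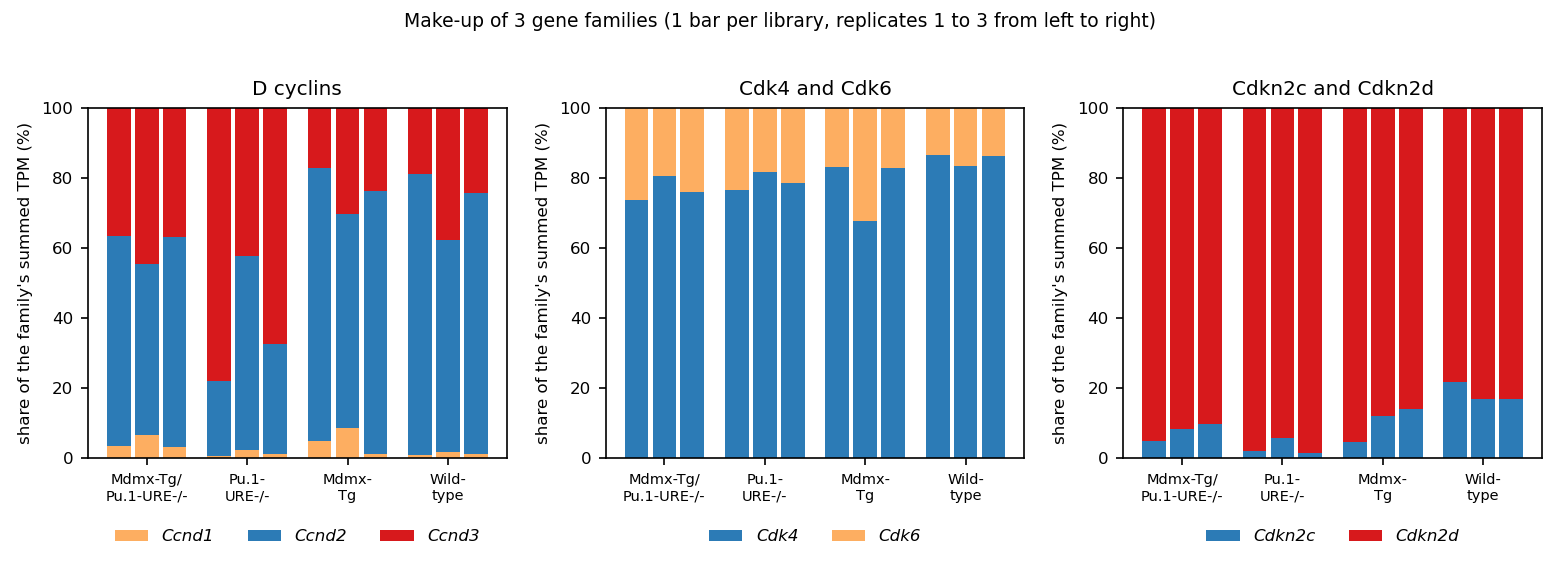
Share of the summed TPM of each family given to its members, in percent, with 1 bar per library and replicates 1 to 3 from left to right within a genotype. Ccnd3 is above 60% in Pu.1-URE-/- 1 and 3 (77.9% and 67.2%), Cdk6 is lowest in Wild-type (13.5% to 16.5%), and Cdkn2c is highest in Wild-type (16.8% to 21.8%).

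Neither kinase gene passed in any comparison. Cdk4 (chromosome 10, 127063534 to 127067920, plus strand) had 480.4, 569.8 and 421 CPM in the double mutant, 397, 524 and 391 in Pu.1-URE-/-, 437, 324 and 556 in Mdmx-Tg and 448, 496 and 667 in Wild-type. Its groups overlapped in every comparison, and the change with element loss was -0.07 log2 (SE 0.17, edgeR adjusted p = 0.855). Cdk6 (chromosome 5, 3341485 to 3531008, plus strand) had 2303, 1946 and 1799.7 CPM in the double mutant, 1584, 1606 and 1291 in Pu.1-URE-/-, 1261, 2457 and 1576 in Mdmx-Tg and 846, 1318 and 1413 in Wild-type. It was highest in the double mutant and in Mdmx-Tg 2, and the change with element loss was 0.26 log2 (SE 0.19, edgeR adjusted p = 0.427). Cdk6 made up 23.2% ± 3.46 of the summed Cdk4 and Cdk6 TPM in the double mutant, 18.3% to 23.4% in Pu.1-URE-/-, 22.1% ± 8.81 in Mdmx-Tg and 14.6% ± 1.68 in Wild-type (SD, n = 3 each). All 3 Wild-type shares lay below those of every other genotype, by a narrow margin from Mdmx-Tg 1 and 3 (16.9% and 17.1%, against up to 16.5%). The Mdmx-Tg mean was raised by Mdmx-Tg 2, at 32.3%.

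Rb1 (chromosome 14, 73183673 to 73325822, minus strand), whose product holds back E2F factors, had 13.4, 26.9 and 17.3 CPM in the double mutant and 33.8, 24.8 and 19.0 CPM in Pu.1-URE-/-. It had 34.2, 20.2 and 12.7 CPM in Mdmx-Tg, with 7.25, 20.9 and 11.6 CPM in Wild-type. All genotypes overlapped. The change with element loss was 0.37 log2 (SE 0.34, edgeR adjusted p = 0.545), and its sign turned to -0.09 log2 with a transcript length offset. Pu.1-URE-/- against Wild-type gave 0.96 log2 (SE 0.48, adjusted p = 0.301).

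The transgene was tested in the same way, 6 transgenic libraries against 6 others. edgeR called none of the 15012 genes (0%), although 2453 (16.3%) had an unadjusted p under 0.05, among them 4 of the 9 (Cdkn1b, Ccnd1, Ccnd3 and Cdk6). DESeq2 called 1016 genes and limma-voom 1. Of the 9 genes DESeq2 called 3, namely Cdkn1b, Ccnd1 and Ccnd3, and limma-voom none. The median change of the 9 was 0.00 log2, as over all genes.

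Cdkn1b, the gene of p27 (chromosome 6, 134920401 to 134925513, plus strand), had the clearest separation in CPM. With the transgene it stood at 109, 52.6 and 144 CPM in the double mutant and at 129, 119.7 and 79.8 CPM in Mdmx-Tg. Without the transgene it stood at 37.3, 37.8 and 27.9 CPM in Pu.1-URE-/- and 31.1, 31.6 and 39.8 CPM in Wild-type. All 6 transgenic libraries lay above all 6 others, the only such separation among the 9 genes, where 1.13% of all genes were separated. The difference was 3.08-fold (log2 1.62, SE 0.24) and missed the threshold in edgeR (adjusted p = 0.0942), while DESeq2 gave 4.87e-08. Over all settings the change stayed between 1.36 and 1.78 log2 without a change of sign, and the edgeR test passed without Mdmx-Tg 3 (adjusted p = 0.0200) or without Mdmx-Tg/Pu.1-URE-/- 2 (0.0121), the transgenic libraries with the least Cdkn1b of their genotypes. The effect was 1.57 log2 (SE 0.34, adjusted p = 0.406) between the double mutant and Pu.1-URE-/-, and 1.68 log2 (SE 0.34, adjusted p = 0.317) between Mdmx-Tg and Wild-type, with an interaction of -0.11 log2 (SE 0.46, edgeR adjusted p = 1.0). In both of these comparisons edgeR called none of the 9 and none of all genes (0%). At an unadjusted p under 0.05 there were 4 of the 9 and 1601 of all genes (10.7%) between the double mutant and Pu.1-URE-/-, and 2 of the 9 and 1576 of all genes (10.5%) between Mdmx-Tg and Wild-type. Between the double mutant and Pu.1-URE-/-, DESeq2 called 329 of all genes and 3 of the 9, namely Cdkn1b (adjusted p = 0.00167), Ccnd3 (0.0016) and Cdkn2d (0.0465). Between Mdmx-Tg and Wild-type it called 329 of all genes and 1 of the 9, Cdkn1b (0.000261), which edgeR also called there without Mdmx-Tg 3 (0.0469). limma-voom called none in either comparison. Loss of the element gave -0.05 log2 for Cdkn1b (SE 0.23, edgeR adjusted p = 0.938). It was the only gene of the 9 whose Mdmx-Tg and Wild-type libraries did not overlap, as 13.7% of all genes did not.

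Between the double mutant and Wild-type, Cdkn1b was the only one of the 9 genes called, against 3.34% of all genes. It was 2.98-fold higher in the double mutant (log2 1.58, SE 0.34, edgeR adjusted p = 0.0295). This call was lost with limma-voom (0.0561), with only these groups in the fit (0.0691), with a block for the mouse number series (0.0592) or for replicate number (0.0619), with Y-linked expression as a covariate (0.176) and without Mdmx-Tg/Pu.1-URE-/- 3, Mdmx-Tg 2 and Wild-type 1 together (0.247). It was also lost on leaving out any Wild-type library (0.0908 to 0.118), Pu.1-URE-/- 2 (0.0522) or 3 (0.0537), or Mdmx-Tg/Pu.1-URE-/- 1 (0.115) or 3 (0.111). In the fits that lost it the change was 1.13 to 1.61 log2. In this comparison 5 of the 9 genes had groups that did not overlap in CPM, Ccnd1, Cdk6, Cdkn1b and Cdkn2d above and Ccnd2 below Wild-type, where 26% of all genes did not overlap. On the TPM scale Cdk6 (down to 169 TPM, against up to 172 TPM in Wild-type), Cdkn1b and Ccnd2 overlapped Wild-type, and Ccnd1 and Cdkn2d did not. In value, Cdkn2d was 2.09-fold higher there (log2 1.06, SE 0.29, edgeR adjusted p = 0.0795), Cdk6 1.69-fold (log2 0.76, SE 0.27, adjusted p = 0.16) and Ccnd1 2.02-fold (log2 1.02, SE 0.48, adjusted p = 0.295). None of these passed in edgeR, and Cdkn2d passed with DESeq2 (log2 1.00, adjusted p = 0.0164).

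Ccnd1, the cyclin D1 gene (chromosome 7, 144929931 to 144939925, minus strand), had 31.8, 38.4 and 24.2 CPM in the double mutant and 58.7, 48.4 and 14.3 CPM in Mdmx-Tg. It had 7.26, 19.7 and 14.3 CPM in Pu.1-URE-/- and 15.9, 14.3 and 16.4 CPM in Wild-type. Of the 6 transgenic libraries 5 lay above all 6 others, and Mdmx-Tg 3 lay among the others. On the TPM scale Mdmx-Tg/Pu.1-URE-/- 3 (6.98 TPM) also lay below Pu.1-URE-/- 2 (7.04 TPM). The change was 1.29 log2 (SE 0.34, edgeR adjusted p = 0.139), with DESeq2 at 0.0105, and without Mdmx-Tg 3 it was 1.48 log2 and passed (adjusted p = 0.0307). Loss of the element gave -0.27 log2 (SE 0.34, edgeR adjusted p = 0.683). Mdmx-Tg 3 was also the Mdmx-Tg library with the least Mdm4 of its genotype and the one whose omission raised the count over all genes to 447. Ccnd1 made up at most 8.56% of the D cyclin TPM in any library.

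Ccnd3 was lower and Cdk6 higher in value with the transgene. The Ccnd3 change was -1.14 log2 (SE 0.27, edgeR adjusted p = 0.139, DESeq2 0.00128), with 4 of the 6 transgenic libraries below all 6 others in CPM, and it passed without Mdmx-Tg 3 (-1.37 log2, adjusted p = 0.0326). On the TPM scale only Mdmx-Tg 2 (43.0 TPM) lay below all of the others, whose lowest was Wild-type 1 (45.6 TPM). Between the double mutant and Pu.1-URE-/- the Ccnd3 change was -1.61 log2 (SE 0.38, adjusted p = 0.406), and all 3 double-mutant libraries lay below the 3 Pu.1-URE-/- libraries. In all, 4 of the 9 genes (Ccnd1, Cdk6 and Cdkn1b above, Ccnd3 below) had groups that did not overlap there in CPM, against 18.8% of all genes. On the TPM scale Ccnd1 overlapped there, with 6.98 TPM in Mdmx-Tg/Pu.1-URE-/- 3 against 7.04 TPM in Pu.1-URE-/- 2. The Cdk6 change was 0.50 log2 (SE 0.19, edgeR adjusted p = 0.226), with 4 of the 6 transgenic libraries above all 6 others in CPM. On the TPM scale only Mdmx-Tg/Pu.1-URE-/- 1 (238 TPM) and Mdmx-Tg 2 (192 TPM) lay above Wild-type 3 (172 TPM). Cdkn2d gave -0.21 log2 (SE 0.20, adjusted p = 0.664), the mean of 0.54 log2 (SE 0.29) with the element and -0.97 log2 (SE 0.29) without it. Erythroid markers were lower in value with either change. For the transgene all 7 values were below 0 (median -1.12 log2), and for element loss 6 were (median -1.39 log2), with none called in either. In Pu.1-URE-/- against Wild-type all 7 were below 0 (median -1.51 log2). Their sums, given above, were lower in the double mutant and in Pu.1-URE-/- than in Wild-type without overlap. Within Mdmx-Tg, replicate 3 had 1902 CPM of these markers, against 568 and 552 CPM in replicates 1 and 2, and it also had the least Cdkn1b and Ccnd1 and the most Ccnd3 of its genotype. The part of erythroid cells in the differences of Cdkn1b, Ccnd1, Ccnd3 and Cdk6 was not tested. Ccnd2, Cdk4, Cdkn2c and Rb1 had transgene changes of -0.06 to 0.16 log2, with SE of 0.17 to 0.37 and edgeR adjusted p of 0.875 to 1.0.

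**Figure D4:**
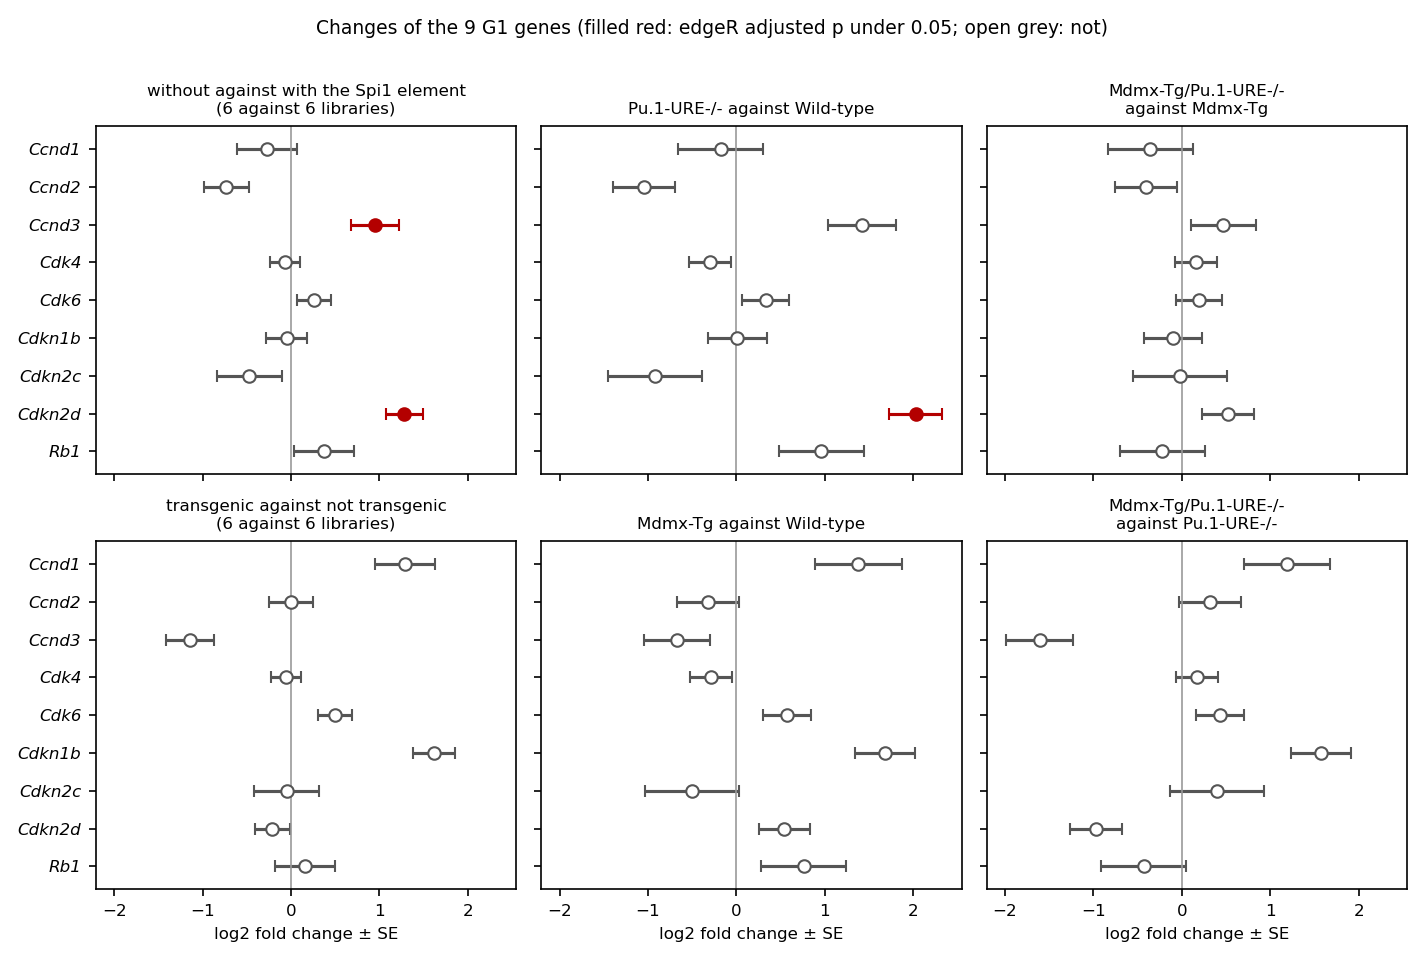
Log2 fold change with SE of the 9 genes for loss of the Spi1 element (upper row) and for the transgene (lower row), over all libraries and within each background, with filled red points for edgeR adjusted p under 0.05. Only Cdkn2d (upper left and middle) and Ccnd3 (upper left) are filled, while the Cdkn1b changes of 1.57 to 1.68 log2 in the lower row are open.

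Transcript assignments are given for the starts of Ccnd3 and Cdkn2c, 2 genes chosen for it after their values were seen. Most Ccnd3 reads belonged to Ccnd3-205, which begins at 47593470 on chromosome 17, downstream of the first annotated start of the gene at 47505051. Transcripts that begin upstream took 6.45%, 15.7% and 21.01% of Ccnd3 reads in the double mutant, 1.25%, 6.32% and 3.5% in Pu.1-URE-/-, 19.97%, 50.5% and 4.17% in Mdmx-Tg and 5.43%, 5.88% and 5.9% in Wild-type. The high shares were in Mdmx-Tg 1 and 2 and in double-mutant libraries 2 and 3, and Mdmx-Tg 3, at 4.17%, lay below Wild-type. Both the upstream reads and the main reads took part: the upstream level was 14.6 and 26.5 CPM in Mdmx-Tg 1 and 2, against 7.0 to 8.81 CPM in Wild-type, and the level from the main start was 58.6 and 26.0 CPM, against 118 to 141 CPM. The upstream group pools 13 annotated transcripts, and some are annotated as retained introns. One of those, Ccnd3-203, took 7.87% and 11.7% of Ccnd3 reads in Mdmx-Tg 1 and 2, against 1.02% to 2.44% in Wild-type. The protein-coding Ccnd3-202 took 8.24% and 33.4%, against 0.0% to 2.09%. The gain of Pu.1-URE-/- in Ccnd3 lay at the main start, with 173 to 492 CPM there in Pu.1-URE-/-, against 118 to 141 CPM in Wild-type, and 6.25 to 13.9 CPM upstream.

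For Cdkn2c, the transcript Cdkn2c-202 begins upstream of the main start (109665372 on chromosome 4, minus strand). It took 2.61% to 8.76% of the reads of the gene in the double mutant, 23.2% to 29.4% in Pu.1-URE-/-, 8.55% to 22.5% in Mdmx-Tg and 6.71% to 22.2% in Wild-type. The double mutant and Pu.1-URE-/- did not overlap, but the shares rest on 9 to 36 estimated reads in the double mutant and 49 to 123 in Pu.1-URE-/-, and none of these shares was tested. Of the other genes, Ccnd2 also had a transcript from an upstream start, Ccnd2-206, which took 7.24% to 15.5% of its reads, beside Ccnd2-201 with 76.1% to 90%. Cdkn2d-203 took 85.7% to 96% of the reads of Cdkn2d. Cdk4-201 took 39.1% to 52.3% of those of Cdk4, and 4 further transcripts took at least 5% each over all libraries. Salmon's division of reads between transcripts that share exons is an estimate. Exons of Ccnd1, Ccnd3, Cdk4 and Rb1 overlap those of the genes LTO1, Bysl, Tspan31, and Lpar6 and Rcbtb2 on the opposite strand. Those of Ccnd2 overlap the antisense genes 9330179D12Rik and Gm43126, and those of Cdk6 the antisense gene Gm17590, for which no reads were counted. Whether the libraries kept strand is not given in the sources used here.

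**Figure D5:**
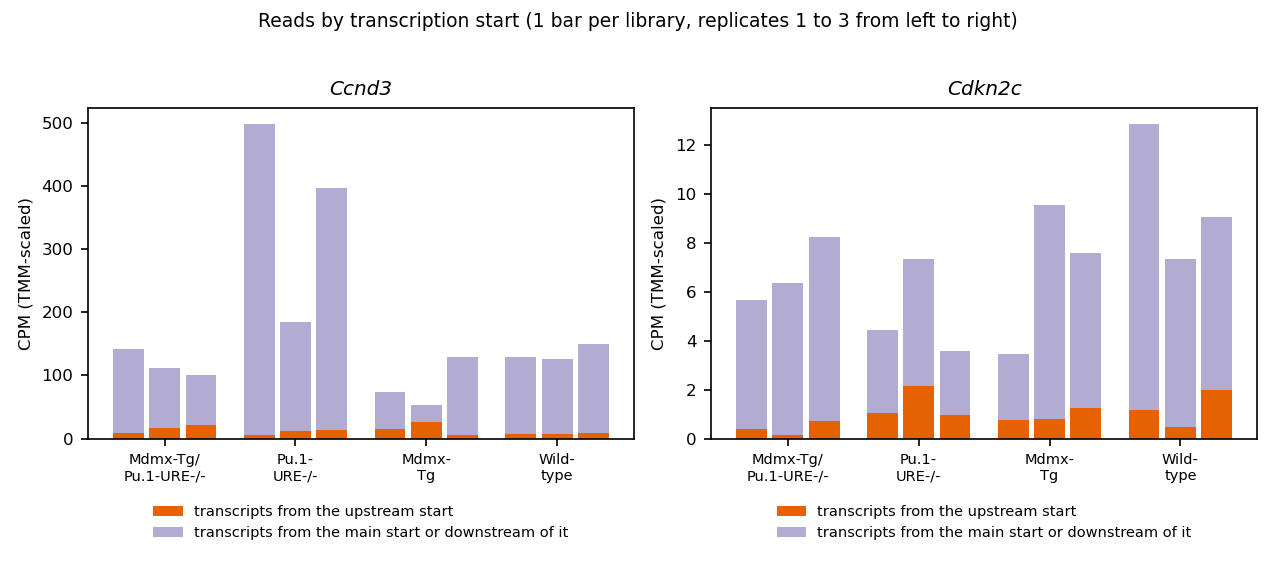
CPM of Ccnd3 (left) and Cdkn2c (right) divided between transcripts from the upstream start (orange, bottom) and from the main start or downstream of it (violet, top), with 1 bar per library. In Ccnd3 the upstream part is 26.5 of 52.5 CPM in Mdmx-Tg 2 and 6.25 of 499 CPM in Pu.1-URE-/- 1.

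The other genes of the G1 machinery were read from 5 lists with 34 genes, of which 32 were tested. With element loss 3 were called higher and 2 lower, in all 15.6% against 11.9% of all genes, which is near the background, and their median was 0.3 log2. Cdk2, the partner of cyclins E and A, averaged 211 ± 43.9 CPM in the double mutant and 269 ± 27.2 in Pu.1-URE-/-, against 115 ± 17.1 in Mdmx-Tg and 148 ± 32.8 in Wild-type (SD, n = 3 each; log2 0.87, SE 0.16, edgeR adjusted p = 0.00521). Tfdp1, a dimer partner of E2F factors (log2 0.59, SE 0.12, adjusted p = 0.00962), and Rbl1, the pocket protein p107 and a relative of Rb1 (log2 0.65, SE 0.18, adjusted p = 0.0353), were also higher. Cdk7, a subunit of the kinase that activates CDKs, was lower (log2 -0.44, SE 0.13, adjusted p = 0.0479). The Kip inhibitor gene Cdkn1c (p57), a relative of Cdkn1b, had no read in the 3 double-mutant libraries, against 34, 86 and 38 reads in Pu.1-URE-/-, 551, 157 and 177 in Mdmx-Tg and 137, 85 and 174 in Wild-type. With 3 reads over the 3 libraries as the limit that a count of 0 allows, its pooled level in the double mutant was at least 123-fold below Wild-type (edgeR adjusted p = 0.00759). By the same rule it was at least 286-fold below Mdmx-Tg (edgeR adjusted p = 0.00568) and 51.8-fold below Pu.1-URE-/-. The last was not called (edgeR adjusted p = 0.406), nor was the interaction (0.68). These limits on pooled reads leave out the spread between mice. Cdkn1c was called lower with element loss over both states (edgeR adjusted p = 0.00181). In Pu.1-URE-/- against Wild-type it was not called (adjusted p = 0.501). Cdkn1a, the p53 target p21, averaged 10.5 ± 5.62, 34.5 ± 22.1, 7.04 ± 5.21 and 13.5 ± 2.85 CPM (SD, n = 3 each) in the double mutant, Pu.1-URE-/-, Mdmx-Tg and Wild-type and passed neither the element test (log2 0.97, adjusted p = 0.186) nor the transgene test (-1.33, adjusted p = 0.19). Cdkn2b had too few reads to be tested.

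Downstream of the G1 switch, 5 of 24 E2F target and S phase genes were called higher without the element and none lower, with a median of 0.28 log2. That is 20.8% called higher, against 8.08% of all genes. Rrm2, a subunit of ribonucleotide reductase, was 1.27 log2 higher (SE 0.22, edgeR adjusted p = 0.00386), Uhrf1 0.98 (adjusted p = 0.0217), Slbp 0.52 (0.0224), Tk1 0.70 (0.0312) and Mybl2 0.98 (0.0469). Of 16 G2/M genes 8 (50%) were called higher, against 8.08% of all genes, and none lower, with a median of 0.70 log2, and all 16 values were above 0. The mitotic kinesin gene Kif11 was 1.10 log2 higher (SE 0.18, edgeR adjusted p = 0.00289) and the mitotic kinase gene Cdk1 1.07 log2 (SE 0.18, adjusted p = 0.00341). With the transgene none of the 24 or 16 genes was called by edgeR, and all 16 G2/M values were below 0, with a median of -0.33 log2. The summed level of the 24 E2F target and S phase genes was 4513 to 5589 CPM in the double mutant and 5087 to 6165 CPM in Pu.1-URE-/-. Both overlapped Wild-type (3455 to 5319 CPM) but not Mdmx-Tg (3276 to 4340 CPM). The summed G2/M level was 3202 to 3579 CPM in the double mutant and 3289.8 to 5660.3 CPM in Pu.1-URE-/-, against 2042 to 2461 CPM in Mdmx-Tg and 1987 to 3194 CPM in Wild-type. All libraries without the element thus lay above all others, by a narrow margin between Mdmx-Tg/Pu.1-URE-/- 2 and Wild-type 3. Granulocyte progenitor markers moved with the same split, as given above, and their part in these changes was not tested.

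Across the 12 libraries the profile of Ccnd3 was most like those of Syngr2 (Pearson's r = 0.99) and Actn4 (0.97), and that of Cdkn2d most like Arpc2 and Atp2c1 (0.97 each), among the 9355 protein-coding genes whose mean log2 CPM reached 2. For Cdkn1b the closest were Tut4 (0.94) and Stc2 (0.93), and for Ccnd1 Gnpnat1 (0.94) and Sept6 (0.93). Cdk6 was closest to Ier3ip1 (0.93), Cdk4 to Pebp1 (0.92), Cdkn2c to Scaf8 (0.89), Ccnd2 to Slc3a2 (0.87) and Rb1 to Ube2t (0.86). Within the list, the pairs with the highest r were Ccnd1 with Cdkn1b (0.70) and Ccnd3 with Cdkn2d (0.67), and those with the lowest were Ccnd1 with Ccnd3 (-0.80) and Ccnd2 with Cdkn2d (-0.77). These values describe 12 points that share genotypes and cell make-up and carry no test.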

How the data were processed

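RNA of sorted Flk2-negative Lin-Sca-1+Kit+ cells was read as 100 bp pairs on a BGISEQ-500, according to the labels' protocols. The submitters' processing notes name Salmon, FastQC and DESeq2 and the builds GRCm38 and mm10, without versions. Each library has 1 deposited file, which holds, per the file headers, estimated counts (expected counts, not normalized) and TPM per transcript, both as computed by the authors with Salmon. Of 116248 transcripts, 115995 were matched to GENCODE M21, and the 253 others held 0.0379% to 0.0841% of the reads of a library. Estimated counts and TPM were summed per gene, and the counts were rounded.

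Genes were kept by filterByExpr (minimum count 10, total 15), scaled by TMM and fitted in edgeR 4.0.16 (R 4.3.3) with 1 mean per genotype and no block. The biological coefficient of variation was 0.796. The 8 comparisons were loss of the element and the transgene over both states of the other, 5 pairs of genotypes, and the interaction. Several of them share libraries, so their results are not independent. Each library has a mouse number of its own, so p-values rest on the spread between mice of a genotype. Depth is the library total, and the 9 genes had at least 181 reads in every library.

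The 9 genes and all other gene lists were chosen with earlier results of these data known, so no list is independent evidence. Named genes are the 9, up to 4 per other list with the smallest p for element loss, any in a count of 5 or fewer, and for each of the 9 the most similar genes by correlation of log2 CPM (prior count 2). Transcripts, starts and shares are descriptions. A start group was formed where starts lay over 1000 bases apart. The tests were repeated with DESeq2 1.42.0 and limma-voom (limma 3.58.1), with relative log expression factors, without the low-count filter and with an offset for transcript length. They were also repeated with a fit to the compared groups alone, with replicate number or mouse number series as a block, with Y-linked expression as a covariate, and without immunoglobulin genes. The mouse number series are ranges of mouse numbers set for the fit, not a batch named in the labels. Libraries were left out 1 at a time, and Mdmx-Tg/Pu.1-URE-/- 3, Mdmx-Tg 2 and Wild-type 1 together, as libraries in doubt from those earlier results. Promoter windows are RefSeq's, on GRCm38.p6. Tables and figures used Python 3.11.15.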

Additional observations from a re-analysis of the deposited data

How the results depend on the processing

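Of 1647 values of the 9 genes under alternatives, 1593 kept their side of the threshold and their direction, apart from 62 that turned in sign from a main value within 1 SE of 0. Beside these, 25 newly passed, 26 no longer passed and 3 turned. The 3 were Rb1 with element loss (-0.09 log2 with a length offset), Cdk4 in Pu.1-URE-/- against Wild-type (0.00 with the mouse number series block) and Ccnd2 in the interaction (-0.06 without the 3 doubted libraries). The cause was not tested. DESeq2 called the most genes, with 3018 for element loss, 1016 for the transgene, 1881 for Pu.1-URE-/- against Wild-type, 1289 for the double mutant against Mdmx-Tg, 329 for Mdmx-Tg against Wild-type, 329 for the double mutant against Pu.1-URE-/-, 1547 for the double mutant against Wild-type and 194 for the interaction. Of the 9 genes it called 3 for element loss, 3 for the transgene, 3 for Pu.1-URE-/- against Wild-type, 1 for Mdmx-Tg against Wild-type, 3 for the double mutant against Pu.1-URE-/-, 2 for the double mutant against Wild-type and 1 for the interaction. Element loss gave 1178 genes with the Y-linked covariate and 1032 without the doubted libraries, and 1 of the 9 genes in both and with relative log expression factors. With a length offset it gave 3 of the 9. The transgene gave 1 gene with limma-voom and 1 with a length offset. Pu.1-URE-/- against Wild-type gave 257 genes with the series block, and 2 of the 9 (Cdkn2d and Ccnd3) with that block and with a length offset. The double mutant against Mdmx-Tg gave 156 genes with the series block, 92 with the Y-linked covariate and 111 without the doubted libraries. With only the groups compared, Mdmx-Tg against Wild-type gave 1 gene and the double mutant against Pu.1-URE-/- gave 1, as it did without the doubted libraries. The double mutant against Wild-type gave 178 genes with the Y-linked covariate and 147 without the doubted libraries, and 0 of the 9 with those and with limma-voom, only the groups compared, the series block and the replicate block.

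Leaving out 1 library at a time gave 952 to 1750 genes and 1 to 3 of the 9 for element loss, 0 to 447 genes and 0 to 3 of the 9 for the transgene, 299 to 789 genes and 1 to 3 of the 9 for Pu.1-URE-/- against Wild-type, and 136 to 347 genes for the double mutant against Mdmx-Tg. It gave 0 to 109 genes and 0 to 1 of the 9 for Mdmx-Tg against Wild-type, 0 to 4 genes for the double mutant against Pu.1-URE-/-, and 162 to 565 genes and 0 to 1 of the 9 for the double mutant against Wild-type. The count for the transgene reached 447 without Mdmx-Tg 3. That for element loss was lowest without Pu.1-URE-/- 3, that for Pu.1-URE-/- against Wild-type without Wild-type 2, that for the double mutant against Mdmx-Tg without Mdmx-Tg/Pu.1-URE-/- 1, and that for the double mutant against Wild-type without Wild-type 2.

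Replicate numbers of the labels do not pair the libraries: deviations of same-numbered libraries correlated at -0.15 to 0.09 (median -0.02), and 4 of 12 libraries correlated best with their own number. With the replicate block, element loss gave 1555 genes and 2 of the 9, Pu.1-URE-/- against Wild-type 690 genes and 1 of the 9, and the call of Cdkn1b in the double mutant against Wild-type was lost (adjusted p = 0.0619). No other call of the 9 genes changed with it. Depth limits most the shares of Cdkn2c-202, with 9 to 36 estimated reads in the double mutant. Cdkn2c had the fewest reads of the 9 (181 to 591 per library), with an SE of 0.37 log2 for element loss, and how far depth sets that SE was not tested.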
